A study of Mus musculus with 8 samples.

Results

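CP1 is the label that the study's annotation gives to 1 of 6 classes of chondrocyte progenitors (CPs) in the petrous temporal bone (PTB) of the mouse, the part of the skull base that holds the inner ear and the subarcuate fossa around the paraflocculus. Its members were the nuclei labelled CP1 in the deposited annotation, matched to the count matrices by library and barcode. There were 2723 of them among 31076 annotated PTB nuclei, a share of 8.76%, which made CP1 the 4th largest of 15 annotated types. No barcode was labelled CP1 in more than 1 library, and 35 CP1 barcodes also occurred among all barcodes of another library.

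The study asked whether loss of 1 copy of Tbx1, a T-box transcription factor gene, alters the cell types of the PTB. Nuclei came from wild-type (WT) mice and Tbx1+/- littermates at postnatal day 5.5, and RNA was read by single-nucleus RNA sequencing. There were 2 PTB libraries for each genotype, 1 of each genotype in each of 2 batches of animals, and each library was a pool of 5 mice, so single animals cannot be told apart. The Tbx1 deletion was present throughout the animal, not in 1 cell type, and the WT group carried no other allele or treatment that the sources name. Libraries are called WT 1, Tbx1+/- 1, WT 2 and Tbx1+/- 2, where the number is the batch, and 4 values in a row below are in that order.

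Chondrocyte progenitors give rise to the cartilage template in which the otic capsule is laid down before bone replaces it. Sox9 is the master transcription factor of cartilage, it acts with Sox5 and Sox6, and its targets include Col2a1 (type II collagen) and Acan (aggrecan, the main cartilage proteoglycan). Runx2 is the transcription factor that drives chondrocyte hypertrophy and osteoblast formation, and Sp7 (osterix) acts after it in the osteoblast lineage.

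CP1 held 937, 781, 494 and 511 nuclei, with 4100787, 3616034, 2612684 and 2741964 UMIs (unique molecular identifiers, each 1 captured RNA molecule). The median nucleus had 3908, 4111, 4552 and 4548 UMIs and 2194 to 2397 detected genes. Levels below are CPM, the UMIs of a gene summed over the CP1 nuclei of a library per 1000000 UMIs of those nuclei, with the SD over 4 libraries. The libraries differed in 2 groups of genes: the 101 ribosomal protein genes together made up 35630, 28810, 16651 and 24971 CPM of CP1, and the 13 mitochondrial genes 14328, 10444, 6077 and 7343 CPM, in both cases highest in WT 1 and lowest in WT 2. The mitochondrial sum of WT 1 was the furthest from the next library. The same order of libraries was seen for the ribosomal protein genes in osteoclasts (27228, 22041, 11032 and 15650 CPM), so CP1 shared this order with a cell type of another lineage. Skeletal muscle genes (10 genes) summed to 442 and 421 CPM in batch 1 of CP1 and to 79.2 and 50.3 CPM in batch 2. RNA of broken cells that is taken up with every nucleus, called free RNA below, was not removed from these counts.

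The cluster label was checked first against its defining cartilage markers. CP1 ranked 3rd of 15 types in Acan and 7th in Sox9, and its Col2a1 was below that of all other CP types, so the class is called CP1 here by its label and its leading genes. Because the annotation was made by clustering on the same genes, levels in CP1 against other types are a description with no test.

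Acan stood at 199, 173, 198 and 195 CPM in CP1, and the 4 libraries of both genotypes lay close together. Its mean of 191 ± 12.5 CPM was the 3rd highest of 15 types, after matured chondrocytes (1333 ± 345) and CP2 (234 ± 11.7). The connective tissue class CT3 was close, at 155, 182, 200 and 160 CPM, above CP1 in Tbx1+/- 1 and WT 2. CP3 to CP6 lay between 46.9 and 67.2 CPM, and osteoclasts, which should not make aggrecan, at 36.7 ± 8.73. Col2a1 was at 804, 748, 550 and 693 CPM, lowest in WT 2. Its mean of 699 ± 109 CPM was below those of all other CP types, which ran from 760 in CP6 to 1818 in CP5. Sox9 was at 30.5, 29.9, 23.0 and 35.0 CPM, with a mean of 29.6 ± 4.97 that ranked 7th, against 58.2 ± 7.21 in CP2, 101 ± 9.45 in CP5 and 144 ± 33.9 in matured chondrocytes.

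**Figure D1:**
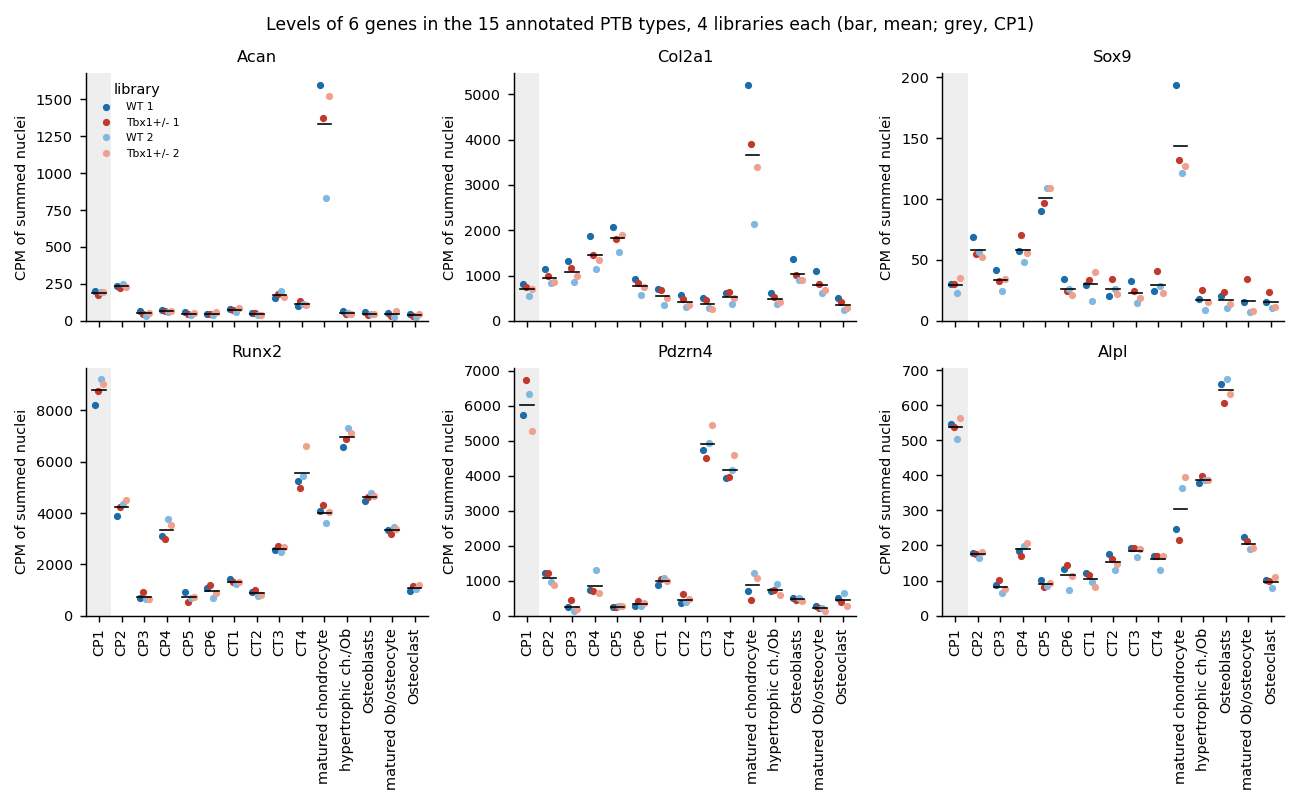
Levels of Acan, Col2a1, Sox9, Runx2, Pdzrn4 and Alpl in the 15 annotated PTB types (CPM of summed nuclei on the vertical axes, types on the horizontal axis, 1 point per library, bar at the mean of 4 libraries, CP1 in grey). Runx2 was highest in CP1 in all 4 libraries, with a mean of 8806 CPM, while Col2a1 was lower in CP1, at a mean of 699 CPM, than in the 5 other CP types.

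To compare detection at a single depth, nuclei with at least 2000 UMIs were thinned to 2000 UMIs each, which kept 912, 772, 483 and 505 of the 937, 781, 494 and 511 CP1 nuclei. At that depth, 27.1%, 23.5%, 25.3% and 25.2% of CP1 nuclei had a UMI of Acan, against 9.93%, 5.38%, 3.86% and 4.26% of osteoclasts. In each library the exact (Clopper-Pearson) 95% intervals of the Acan shares were apart, at 24.2 to 30.1% in CP1 and 7.22 to 13.2% in osteoclasts of WT 1. Without thinning the Acan shares in CP1 were 43.5%, 38.9%, 43.3% and 41.3%, at median depths of 3908 to 4552 UMIs, against 4963 to 7105 UMIs in osteoclasts. These intervals cover counting error only.

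Sox9 was seen in far fewer CP1 nuclei, 6.36%, 5.31%, 4.35% and 5.55% after thinning. Osteoclasts gave 2.66%, 4.71%, 1.93% and 1.70%, and the intervals overlapped in Tbx1+/- 1 (3.84 to 7.14% in CP1 and 2.94 to 7.11% in osteoclasts) and in WT 2 (2.71 to 6.57% and 0.711 to 4.15%). In these libraries the Sox9 share of CP1 was therefore not separable from that of osteoclasts by the intervals. In WT 1 (4.86 to 8.14% and 1.34 to 4.72%) and Tbx1+/- 2 (3.72 to 7.91% and 0.628 to 3.67%) the intervals were apart. Where the Sox9 UMIs of osteoclasts came from was not tested. Col2a1 was present in 72.2%, 70.3%, 56.5% and 66.9% of CP1 nuclei but also in 58.1%, 53.6%, 34.4% and 36.4% of osteoclasts. In matured chondrocytes the Col2a1 share was 80.8 to 100% and that of Sox9 20.0 to 29.4%.

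Sox5 and Sox6, which act with Sox9, differed in rank. Sox6 was at 1034, 1132, 1177 and 1310 CPM in CP1, with a mean of 1163 ± 114 that ranked 3rd, close to CP2 (1018) and above the 184 to 316 CPM of CP3 to CP6. Sox5 was at 396 ± 55.7 CPM and, like Sox9, below CP2 to CP5 (549 to 841). Of the 20 cartilage matrix genes listed, 18 had enough reads to be compared: 1 was higher and 10 were lower in CP1 than in the pooled nuclei of the other 5 CP types in all 4 libraries. Among all 12273 genes compared, 29.1% were higher and 24.1% were lower in all 4 libraries, the background for each count against the other CP types below. Col9a1 and Col9a3, chains of the type IX collagen that coats type II fibrils, were at 244 ± 38.9 and 69.7 ± 18.9 CPM, against means of 1829 and 1179 in CP5. The summed cartilage matrix list was at 4540, 4205, 3715 and 3987 CPM, the 10th of 15 types, whereas CP2 to CP5 lay between 5575 and 9171. The order by sum and the counts of genes differed: Osteoblasts had a higher sum (10960) and the hypertrophic chondrocyte/Osteoblasts class a lower one (2932), yet 11 of the 18 genes were higher in CP1 than in either class in all 4 libraries. Against Osteoblasts 3 were lower, beside 41.9% of all genes higher and 16.2% lower, and against the hypertrophic chondrocyte/Osteoblasts class 0 were lower, beside 23.8% and 22.9%.

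Most of the listed osteoblast genes, but not those of osteocytes, were higher in CP1 than in the other chondrocyte progenitors. Runx2 (ENSMUSG00000039153, minus strand of chromosome 17 at 44495987 to 44814797 in GRCm38) stood at 8200, 8754, 9222 and 9049 CPM. All 4 libraries of CP1 were above those of the 14 other types, and the mean of 8806 ± 448 CPM compared with 6974 in the hypertrophic chondrocyte/Osteoblasts class, 4631 in Osteoblasts, 4233 in CP2 and 716 to 961 in CP3, CP5 and CP6. After thinning, 99.5%, 99.7%, 100% and 99.6% of CP1 nuclei had a Runx2 UMI, and 52.7 to 61.5% of osteoclasts did. Supt3 and Runx2os2, which overlap Runx2 on the other strand at 44777152 to 45119290 and 44710222 to 44713925, were likewise highest in CP1 in all 4 libraries, at 1691 ± 332 and 46.1 ± 6.48 CPM. The strand setting of the counting is not given in the sources used here, so reads of these overlapping genes may not be separable.

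Sp7 was at 245, 225, 263 and 280 CPM in CP1. Its mean of 253 ± 23.7 was below Osteoblasts (350) and matured osteoblasts/osteocytes (305) and above the 37.3 to 99.6 CPM of the other CP types. Alpl, the alkaline phosphatase that releases phosphate for mineral, was at 547, 538, 505 and 563 CPM, second only to Osteoblasts (644). Thinned shares were 34.7 to 40.8% for Sp7 and 57.6 to 60.4% for Alpl in CP1, and 4.18 to 11.2% and 12.2 to 15.7% in osteoclasts. The genes whose thinned shares are given, other than Acan, Sox9 and Col2a1, were chosen after their values were seen.

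Of the 14 osteoblast genes listed, 12 were higher and 0 were lower in CP1 than in the other 5 CP types in all 4 libraries, beside the 29.1% and 24.1% of all genes. Against all other annotated nuclei 4 were higher and 9 lower, beside 23.9% and 23% of all genes. The summed list was at 26097, 24646, 21696 and 23086 CPM, the 4th of 15 types, below Osteoblasts (43631) and the hypertrophic chondrocyte/Osteoblasts class (26198) and above the 10013 to 16008 CPM of CP2 to CP6. Of the products of later osteoblasts, Bglap and Ibsp lay near the other CP types. Bglap (osteocalcin) was at 411, 230, 207 and 259 CPM, close to the 222 to 275 CPM of CP2 to CP6, against 925 in Osteoblasts. Ibsp (bone sialoprotein) was at 1371 ± 191 CPM, inside the range of the other CP types (1123 to 1576) and far below Osteoblasts (6416). Col1a1, the type I collagen of bone, was at 3621 ± 923 CPM and was higher in batch 1 (4687 and 4066) than in batch 2 (2663 and 3069). In each library it was above the 5 other CP types, whose means were 2444 to 3126 CPM, and below Osteoblasts (9349).

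The osteocyte list, with 6 of 8 genes compared, had 1 member higher and 3 lower than in the other CP types (29.1% and 24.1% of all genes), and all 6 were lower than in the remaining annotated nuclei (23% of all genes). Dmp1, a matrix protein of osteocytes, was at 105, 135, 52.4 and 76.2 CPM, against 1761 in matured osteoblasts/osteocytes. Phex, an endopeptidase of late osteoblasts and osteocytes, was at 403 ± 41.0 CPM against 5817 in that class.

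Genes of the hypertrophic chondrocyte were mixed. Of 10 listed genes compared, 7 were higher and 1 lower than in the other CP types (29.1% and 24.1% of all genes), and 5 were higher and 5 lower than in the hypertrophic chondrocyte/Osteoblasts class (23.8% and 22.9%). The list is not separate from that of osteoblasts, since 4 genes of it, Runx2, Alpl, Ibsp and Spp1, are in both. Mef2c, a factor upstream of Runx2 in hypertrophy, was at 2045, 1952, 2039 and 2259 CPM, and Panx3, a hemichannel of prehypertrophic chondrocytes and osteoblasts, at 403, 417, 451 and 519 CPM. Both were above the 5 other CP types, whose means were 293 to 840 CPM for Mef2c and 63.4 to 146 for Panx3. Osteoblasts were above CP1 in each library, at 2888 to 3271 CPM for Mef2c and 613 to 803 for Panx3. Of the 10 listed genes, 1 was higher and 6 were lower in CP1 than in Osteoblasts (41.9% and 16.2% of all genes). The defining genes of hypertrophy were low. Col10a1 (type X collagen) was at 21.8 ± 4.98 CPM, inside the 17.6 to 22.1 CPM of CP2 to CP6, and Ihh (Indian hedgehog) at 4.67 ± 1.57, against 192 and 50.8 in matured chondrocytes. Mmp13, the collagenase of terminal hypertrophic chondrocytes, was at 287, 303, 166 and 195 CPM against 1923 in the hypertrophic chondrocyte/Osteoblasts class, and its thinned shares of 34.8%, 40.4%, 22.2% and 30.5% stood beside 24.2%, 35.0%, 16.7% and 17.9% of osteoclasts.

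**Figure D2:**
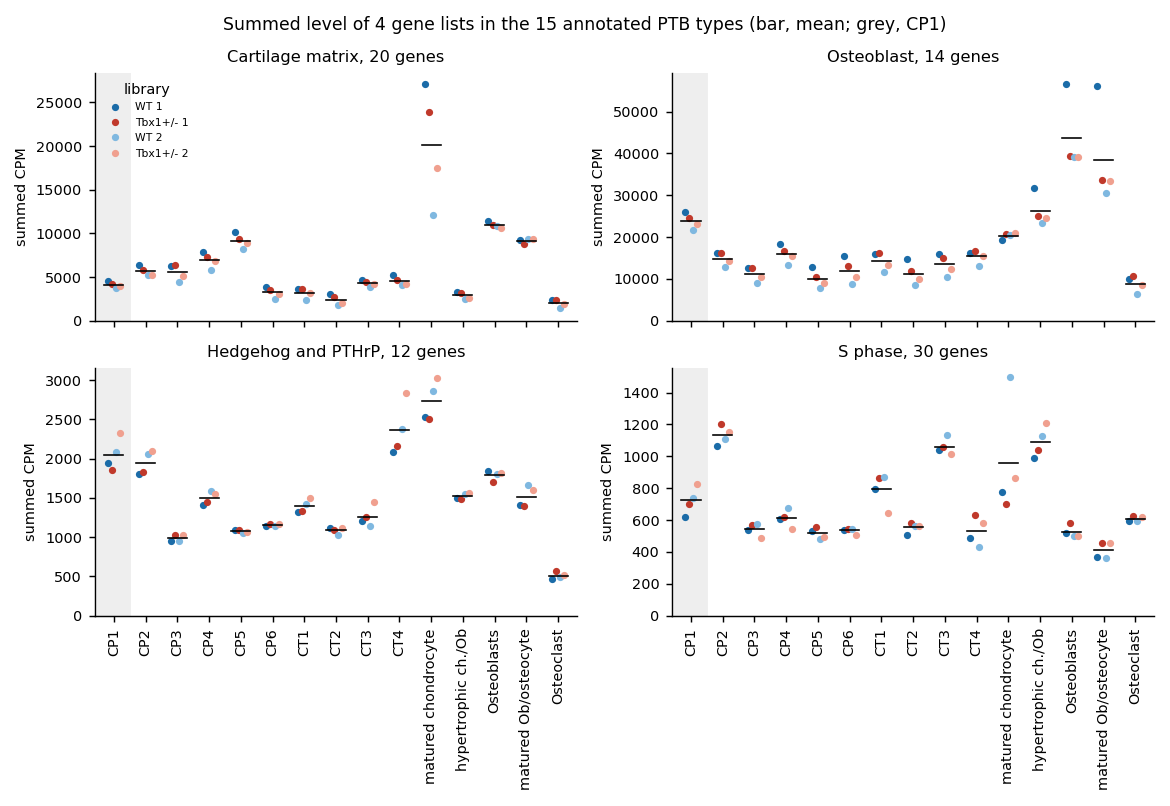
Summed levels of the cartilage matrix, osteoblast, hedgehog and PTHrP, and S phase lists in the 15 annotated PTB types (summed CPM on the vertical axes, 1 point per library, bar at the mean, CP1 in grey). CP1 was the 4th of 15 types for the osteoblast list, at a mean of 23881 CPM, and the 10th by sum for cartilage matrix, at 4112 CPM. By gene, 11 of 18 cartilage matrix genes were higher and 3 lower in CP1 than in Osteoblasts, the 2nd by sum, in all 4 libraries (41.9% and 16.2% of all genes).

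The leading genes of CP1 were taken by a rule of size, as the mean over libraries of log2 of CPM in CP1 plus 5 over CPM in the pooled comparison nuclei plus 5. Of 8436 genes at 20 CPM or more on the higher side, 137 were at least 2-fold higher and 410 at least 2-fold lower in CP1 than in CP2 to CP6 in all 4 libraries. Pdzrn4, a PDZ-domain RING finger gene (plus strand of chromosome 15 at 92396881 to 92771819), led with a mean log2 difference of 3.15. It stood at 5727, 6748, 6340 and 5288 CPM in CP1, against 676 in the pooled other CP types. The nearest type was CT3, a connective tissue class, at 4726, 4494, 4949 and 5461 CPM, so that CP1 was above CT3 in 3 libraries and below it in Tbx1+/- 2. A Pdzrn4 UMI was found in 81.8 to 86.7% of thinned CP1 nuclei and in 22.2 to 28.1% of osteoclasts. The lncRNA 4930588J15Rik, at 92702886 to 92705955 on the minus strand within Pdzrn4, also led, at 2.16, and its reads may not be separable from those of Pdzrn4.

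Spock1, a secreted proteoglycan gene, was the next, at 414, 493, 508 and 511 CPM against 55.6 in the other CP types, a mean log2 difference of 3.01. Its mean of 481 CPM was the 2nd of 15 types, beside 493 in matured osteoblasts/osteocytes and 442 in Osteoblasts. Tnn (tenascin W, a matrix protein of periosteum and bone) differed by 2.72 but varied between libraries, at 93.9, 146, 79.6 and 38.3 CPM. Fat3, an atypical cadherin, was at 1768 ± 142 CPM against 270 (2.69). Tnfsf11, which encodes RANKL, the ligand that drives osteoclast formation, was at 50.5, 40.1, 47.5 and 43.0 CPM, and all 4 libraries were far above the 3.81 to 8.78 CPM of CP2 to CP6. Only the hypertrophic chondrocyte/Osteoblasts class, at 61.8 CPM, had a higher Tnfsf11 mean. The other higher leaders were Dapk2, Car8, Dlx6os1, Samd5, Gm48749, Adam12, Prmt8, Gm10635 and Adamts17, between 2.08 and 2.48.

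The genes that CP1 lacked most included Sorcs3, a sorting receptor, at 22.7, 23.0, 26.8 and 31.7 CPM against 718 in the pooled other CP types (log2 difference -4.55), with the highest mean of 2201 in CP5. Rgs6, a regulator of G-protein signalling, was at 26.2 ± 9.32 CPM against 662 (-4.45), highest in CP6 at 1743. Cacna1e, a calcium channel subunit, was at 15.4 ± 5.72 CPM against 371 (-4.25), highest in CP3 at 1415. Cntn3, a contactin, was at 74.4 ± 12.8 CPM against 988 (-3.65), highest in CP6 at 2993. In these 4 genes CP1 lay below each of the 5 other CP types. The remaining 11 lower leaders were Tll2, Nebl, Lrrtm4, Wdr17, Slc1a2, Slco1a4, 4930587E11Rik, Nalcn, Clstn2, Cntn6 and Lypd6, between -4.17 and -3.60.

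**Figure D3:**
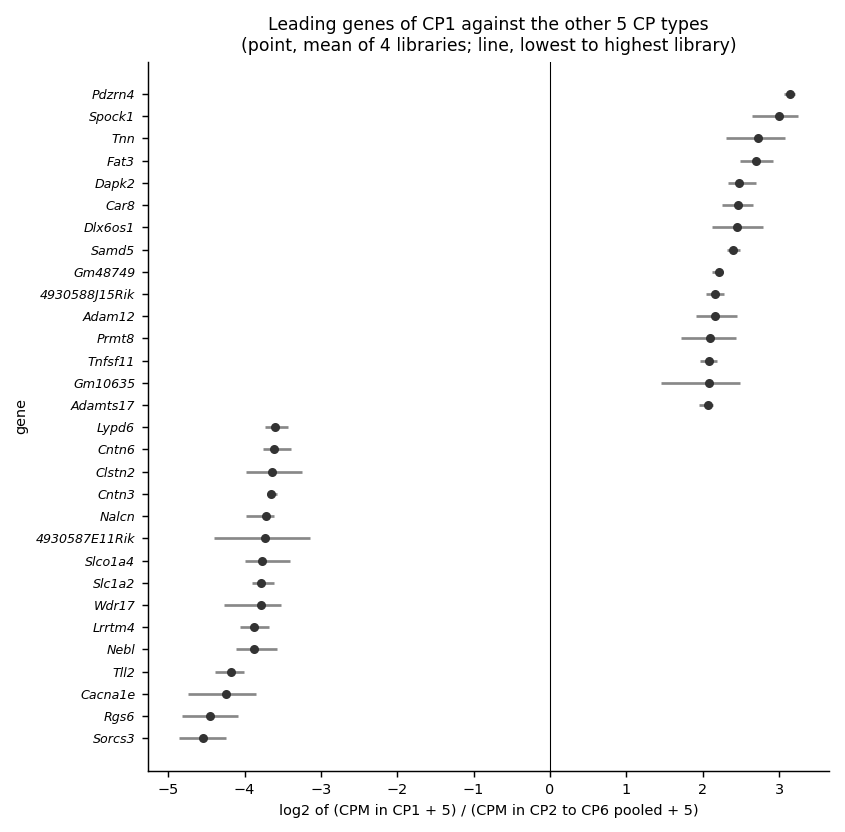
The 15 genes most above and the 15 most below the other 5 CP types in CP1, on the log2 scale of CPM plus 5 (point, mean of 4 libraries; line, lowest to highest library). The means ran from 3.15 for Pdzrn4 to -4.55 for Sorcs3, and the lines of all 30 genes stayed on 1 side of 0, as the rule required.

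Against all other annotated nuclei, 51 of 8294 genes were at least 2-fold higher and 241 at least 2-fold lower in all 4 libraries. Pdzrn4 led again (2.79), followed by Car8 (2.26), Tnn (2.24), Ptgfr, the prostaglandin F receptor gene (2.13), and 4930588J15Rik (2.08). Dlg2, a membrane scaffold gene, was at 867, 917, 871 and 647 CPM against 200 (2.01), and Efna5, the ephrin-A5 gene, at 2816, 3020, 3206 and 3026 CPM against 837 (1.84). Tafa2, Samd5, Ntm, Ostn, Pi15, Gm48749, Caln1 and Myo16 completed the 15, between 1.77 and 1.96. Among the lower genes, Atp6v0d2 (-3.00), Slc9b2 (-2.84) and Tnfrsf11a (-2.67), the gene of the RANK receptor, are expressed by osteoclasts, whose nuclei are part of that comparison. The others were Nyap2 (-3.35), St18, Sorcs3, Rgs6, Ranbp3l, Gsap, Cacna1e, Dgki, Tll2, Clstn2, Nebl and Lrrtm4.

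In a count made after the values were seen, 51 genes had their highest level of 15 types in CP1 in all 4 libraries, while the counts of the 14 other types ran from 39 in CP4 to 1365 in osteoclasts. Dlg2 was furthest above its next type, CT2 at 353 CPM, by a log2 difference of 1.22, followed by Tnn and Efna5 at 1.20. Omd, the gene of osteomodulin, a keratan sulfate proteoglycan of mineralised matrix, was at 325, 166, 198 and 212 CPM, 1.05 above the hypertrophic chondrocyte/Osteoblasts class. Dlx5 (82.2 ± 13.4 CPM), a homeobox activator of Runx2 and Sp7, and Dlx6os1 (114 ± 10.9 CPM), a lncRNA of the same locus on chromosome 6, were also highest in CP1. Their neighbour Dlx6 had its highest mean there too, at 17.3 ± 3.10 CPM.

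By correlation, the types most like CP1 were the hypertrophic chondrocyte/Osteoblasts class (4311 nuclei), Osteoblasts (5813) and CP2 (3579). Across 10670 genes the mean Pearson correlation of log levels with CP1 within a library was 0.953, 0.945 and 0.938 in that order, against 0.766 for osteoclasts and 0.859 for CP5. These correlations are across genes, which are not independent replicates, and all types of a library share its free RNA. These 3 types were chosen for comparison by that correlation. The count of the same 10670 genes at least 2-fold apart in all 4 libraries gave another order. The hypertrophic chondrocyte/Osteoblasts class (281) was followed by matured chondrocytes (376), whose smallest library held 48 nuclei, Osteoblasts (423) and CP2 (433).

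Against CP2, CP1 had more Spock1 (481 and 43.3 CPM, log2 difference 3.34), Fat3 (2.93) and Lrp4 (2.40). CP2 had more Tmeff2 (22.5 CPM in CP1 and 518 in CP2, -4.24), Itgbl1 (-3.79) and Col8a1 (-3.38), the gene of a short-chain collagen. Against the hypertrophic chondrocyte/Osteoblasts class, CP1 had more Myrip (83.6 and 5.60 CPM, 3.05), Pdzrn4 (3.04), Sema3d (2.64), a secreted semaphorin gene, and Sncaip (2.52), and less Ccbe1 (-3.27), Mmp13 (-3.02), Pappa (-2.80) and Esr1 (-2.75), an oestrogen receptor gene. Against Osteoblasts it had more Pdzrn4 (3.68), Tafa2 (3.05), Lef1 (2.57) and Aspn (2.32), the asporin gene, and less Lipc (-3.45), Col22a1 (149 and 1181 CPM, -2.95) and Col24a1 (346 and 2083 CPM, -2.58), genes of minor collagens. At least 2-fold in all 4 libraries, CP1 differed from CP2 in 139 genes higher and 272 lower of 8346, from the hypertrophic chondrocyte/Osteoblasts class in 127 and 148 of 8231, and from Osteoblasts in 232 and 175 of 8033.

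In the hedgehog and PTHrP pathways, the receptor genes Ptch1 and Pth1r had higher means in CP1 than in all other CP types, while the targets Gli1 and Hhip had lower means than in CP2. Ihh from hypertrophying cells binds Ptch1, which frees Smo to activate Gli factors, and Ptch1, Gli1 and Hhip are targets of the pathway. Of 9 genes of the hedgehog and PTHrP list compared, 6 were higher and 2 lower than in the other CP types, and 8 were higher and 0 lower than in all other nuclei, beside 23.9% and 23% of all genes. Against CP2 alone 4 were higher and 3 lower, beside 23.1% and 23% of all genes, and the summed list was close, at 2052 CPM in CP1 and 1949.5 in CP2. Ptch1 was at 446, 396, 458 and 542 CPM, above all 5 other CP types (82.6 to 297), and Gli1 at 35.2 ± 5.14, near CP2 (40.0) and CP4 (32.0). Hhip, a secreted decoy for hedgehog, was at 322 ± 75.7 CPM, second to CP2 (598). Pth1r, the receptor for PTHrP, was at 416 ± 47.5 CPM against 137 to 214 in CP2 to CP6, and Pthlh, the PTHrP gene, at 1.95 ± 0.880.

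The FGF receptors did not move together between CP types. Fgfr2 was at 1671, 1810, 1997 and 1999 CPM, second of 15 types to CT3 (2453), and Fgfr3 at 129, 127, 129 and 120 CPM, second to matured chondrocytes (235) and above the 17.1 to 49.0 CPM of CP2 to CP6. Fgfr4 lay on the other side, at 7.88 ± 1.89 CPM, while CP3 to CP6 had 86.3 to 406. Of the 11 FGF genes compared, 4 were higher and 5 lower than in the other CP types. The BMP and TGF-beta list gave 9 higher and 9 lower of 20, and the Wnt list 6 and 7 of 16. The Wnt genes Lrp4, a co-receptor that binds sclerostin, and Lef1, a nuclear mediator of Wnt, were at 671 ± 78.8 and 534 ± 54.7 CPM, each second of 15 types, after the hypertrophic chondrocyte/Osteoblasts class (1174) and CP4 (1193). Smad6, an inhibitor of BMP signalling, was at 197 ± 19.3 CPM against 66.0 to 129 in CP2 to CP6.

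The fibrous connective tissue list split. Of 15 genes compared, 9 were higher and 5 lower than in the other CP types. Postn (periostin, a matrix protein of periosteum) was at 570, 545, 325 and 195 CPM, second to CT1 (855), with both batch 1 libraries above both of batch 2. Lum (lumican), at 339 ± 126 CPM, had its highest mean in CP1, and Col6a3 and Col5a2 were at 315 ± 61.3 and 1382 ± 78.8 CPM, above all other CP types. Col3a1, at 1212, 1011, 631 and 608 CPM, was also higher in batch 1. Vcan (versican) was at 239 ± 43.2 CPM, far below CT1 (1524), and Gpc3 (glypican 3) at 214 ± 18.7, below CT2 (689), CP2 (373) and CP4 (386).

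Genes of otic and head mesenchyme gave 4 higher and 6 lower of 12 against the other CP types. Otor, a secreted protein of otic fibrocytes and cartilage, was at 134, 118, 69.3 and 109 CPM, against 218 to 1529 in CP2 to CP6, and Tbx18 at 129 ± 15.4 against 282 to 749. Eya4, a transcriptional coactivator of the otic field, was at 798 ± 50.5 CPM, below CP6 (1010) and above the rest of the CP types.

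Cell cycle genes placed CP1 between its neighbours. The 30 S phase genes summed to 621, 700, 741 and 829 CPM in CP1, below CP2 (1063, 1206, 1108 and 1154) and the hypertrophic chondrocyte/Osteoblasts class (987, 1040, 1127 and 1207), and above Osteoblasts (517, 584, 497 and 500), and these ranges did not overlap. Of 28 S phase genes compared, 22 were lower than in CP2 and 21 lower than in the hypertrophic chondrocyte/Osteoblasts class in all 4 libraries, beside 23% and 22.9% of all genes, and 22 were higher than in Osteoblasts, beside 41.9%. The 30 G2 and M phase genes, with 28 compared, gave 26 lower, 24 lower and 20 higher. Top2a, the topoisomerase of dividing cells, was at 66.3, 63.9, 83.8 and 98.8 CPM in CP1, against 192 in CP2, 167 in the hypertrophic chondrocyte/Osteoblasts class and 59.5 in Osteoblasts. Mki67, the Ki67 gene, was at 51.9 ± 7.50 CPM.

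Markers of other cell types were measured alongside. The osteoclast list (10 genes) summed to 1117, 1021, 584 and 859 CPM in CP1, and its Ctsk (cathepsin K) was at 355 ± 89.1 CPM against 4606 in osteoclasts and 333 to 379 in CP2 to CP6. The 8 measured genes of the erythroid list summed to 889, 641, 550 and 390 CPM, glia (6 genes) to 248, 347, 163 and 184, neurons (10 genes) to 250, 241, 207 and 222, endothelium (8 genes) to 106, 129, 104 and 96.6, and immune cells (12 genes) to 125, 104, 65.5 and 96.3. None of these genes was at 0 over the 4 libraries together. In these 6 lists and that of skeletal muscle, at most 2 members a list were higher in CP1 than in the other CP types in all 4 libraries. Lower were 6 of 8 endothelial, 4 of 7 neuronal and 2 of 5 glial genes compared, 1 of 6 immune and 1 of 8 muscle genes, and 0 osteoclast and erythroid genes, beside 24.1% of all genes. Their part in the results was not tested.

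Whether the markers fell in the same nuclei was looked at after the values were seen, at 2000 UMIs a nucleus. Sox9 was found in 7.69%, 6.08%, 5.74% and 7.09% of CP1 nuclei with an Acan UMI and in 5.87%, 5.08%, 3.88% and 5.03% of those without, higher with Acan in 4 of 4 libraries. Nuclei of 1 library are not replicates, so no test was made.

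The genotype comparison within CP1 began with the targeted gene. Tbx1 (minus strand of chromosome 16 at 18580979 to 18590671) was at 53.4 and 59.7 CPM in the WT libraries and at 37.9 and 53.2 in the Tbx1+/- libraries. Both Tbx1+/- libraries were below both WT libraries, as in 12.6% of all genes, but Tbx1+/- 2 (53.2 CPM) lay next to WT 1 (53.4 CPM). The fitted log2 difference was -0.32 (SE 0.199), or -0.45 within batch 1 and -0.15 within batch 2, which did not pass (edgeR quasi-likelihood test, adjusted p = 1.00). The difference ran from -0.087 without Tbx1+/- 1 to -0.57 without Tbx1+/- 2. Which exons the Tbx1+/- allele lacks is not given in the labels, so the RNA counted may include transcripts of the altered allele. Among the CP types the mean level in CP1 (51.1 ± 9.28 CPM) lay between CP4 (54.0) and CP2 (44.5), below CP6 (81.8) and CP5 (76.3), and above CP3 (8.10).

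No gene passed the study's thresholds of over 1.5-fold and adjusted p under 0.05 between Tbx1+/- and WT CP1 nuclei, 0 of 13730 tested (0%), by edgeR on library sums. At an unadjusted p under 0.05 there were 142 genes, or 1.03%. That is below the share of 0.05 that evenly spread p-values would give, and the reason was not tested. DESeq2 called 0 (25 at an unadjusted p under 0.05), and edgeR with the batch as a term called 0 (353). The count depended on 1 library. Without WT 1, 117 genes passed, 107 of them higher in Tbx1+/-, and 59 of those were ribosomal protein genes. That fit set both Tbx1+/- libraries against WT 2 alone, which had the lowest ribosomal protein sum, and the spread came from the Tbx1+/- libraries only, so it gives no replicated difference between genotypes. In simulated counts, this design recovered 50.5% of genes changed 2-fold and 90.5% of genes changed 4-fold, so a change near the threshold could be missed. Those counts had a single dispersion (0.02258) for all genes and no shift between batches or libraries, unlike the real ones. Recovery in the real counts was not measured and may be lower, also for large changes. Neto1, at a fitted log2 difference of 1.86, did not pass.

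The markers of CP1 gave no difference between genotypes beyond the spread of libraries. The fitted log2 differences (Tbx1+/- minus WT) were -0.12 (SE 0.124) for Acan, 0.08 (SE 0.191) for Col2a1, 0.25 (SE 0.220) for Sox9, 0.03 (SE 0.125) for Runx2 and -0.01 (SE 0.152) for Pdzrn4, and the genotypes overlapped in Col2a1, Sox9, Runx2 and Pdzrn4. In Acan both Tbx1+/- libraries were below both WT libraries, as in 12.6% of all genes, by 0.20 within batch 1 and 0.02 within batch 2. Bglap differed by -0.82 within batch 1 and by 0.32 within batch 2.

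The 10 genes with the smallest p and 1 direction in both batches are given as values, since none passed. Ralyl, an RNA-binding protein gene, was at 49.0 and 36.0 CPM in WT and 18.0 and 17.9 in Tbx1+/-, a fitted log2 difference of -1.26 (SE 0.226, unadjusted p = 0.000747 by edgeR). Neto1, an auxiliary subunit of glutamate receptors, was at 2.44 and 3.06 CPM in WT and 11.3 and 8.39 in Tbx1+/- (1.86, SE 0.392). Gm42418, which overlaps a ribosomal RNA repeat, was at 13438 and 12908 CPM in WT and 19253 and 18101 in Tbx1+/- (0.50, SE 0.125). Without the 8% of nuclei with the most UMIs its difference was 0.24 (SE 0.170). Its difference within batch 1 was not particular to CP1. In osteoclasts Gm42418 was at 10841 and 9923 CPM in WT and 15868 and 10533 in Tbx1+/-. Matured chondrocytes went the other way in batch 1 (40623 CPM in WT 1 and 27055 in Tbx1+/- 1). In batch 2 types varied: WT 2 and Tbx1+/- 2 were at 9612.5 and 13719 CPM in CT2 and 13758 and 14068 in CP2. They were at 14880 and 13015 in Osteoblasts and 12560 and 12074 in the hypertrophic chondrocyte/Osteoblasts class. Slc26a7, an anion exchanger gene, was at 60.2 and 66.2 CPM in WT and 85.5 and 87.9 in Tbx1+/- (0.45, SE 0.132). The others were 2700054A10Rik (1.66), Lzts1 (1.40), Ulbp1 (1.79) and Map2k7 (0.71), higher in Tbx1+/-, and Dpagt1 (-0.86) and 2610035F20Rik (-1.32), lower.

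By lists, 0 genes passed in any of 21. The median log2 difference was -0.01 over all genes, -0.06 for the osteoblast list, -0.003 for cartilage matrix, 0.04 for the hypertrophic list, 0.004 for hedgehog and PTHrP, and -0.09 for Wnt. The osteocyte list had a median of 0.138, and its 7 genes tested lay between 0.0016 and 0.486. Dmp1 differed by 0.35 within batch 1 and 0.50 within batch 2 (fitted 0.41, SE 0.359), and its genotypes overlapped. Lists of other cell types had medians further from 0, at 0.37 for glia, 0.21 for endothelium and 0.141 for osteoclasts. Those of skeletal muscle, immune and erythroid cells were at -0.18, -0.27 and -0.40, whereas that of neurons was at 0.00056. Their part in the other values was not tested. Both Tbx1+/- libraries were above both WT libraries in 11.9% of all genes and below in 12.6%. In the S phase list they were above in 11 of 30 genes (36.7%) and below in 0, with a median of 0.12, and in the osteoclast list above in 3 of 9 and below in 0. By these counts the Wnt list leaned the other way, with 1 of 17 above and 4 below. The FGF list had 1 of 13 above and 3 below, but its median of 0.05 lay above that of all genes. Among the 11 S phase genes was Helb, a DNA helicase gene, at 36.6 and 35.6 CPM in WT and 41.2 and 48.1 in Tbx1+/-. Pola1, the catalytic subunit of DNA polymerase alpha, was at 98.3 and 130 CPM in WT and 119 and 155 in Tbx1+/-, which overlap. The summed S phase level also overlapped between genotypes (621 and 741 CPM in WT, 700 and 829 in Tbx1+/-). Within each batch Pola1 and this sum were higher in Tbx1+/-, and within each genotype they were higher in batch 2. Without WT 2, 20 of 30 were above and 2 below, beside 31.6% and 30.8% of all genes, and without WT 1, 13 and 7, beside 31.8% and 34.6%. The G2 and M phase list, with a median of 0.20, gave 6 above and 0 below of 29, and 10 and 0, and 16 and 2, without WT 2 and without WT 1. Its sum was at 681 and 640.3 CPM in WT and 639 and 849 in Tbx1+/-, lower in Tbx1+/- within batch 1 and higher within batch 2. These counts of groups that do not overlap were made after the values were seen.

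Sex-linked genes were read because the labels do not give the sex of the pooled mice. Xist was at 611 and 1039 CPM in WT and 769 and 1379 in Tbx1+/-, and Uty at 201 and 152 in WT and 157 and 96.6 in Tbx1+/-, with fitted log2 differences of 0.38 (SE 0.315) and -0.48 (SE 0.241) that did not pass. Within each batch Xist was higher and Uty lower in Tbx1+/-. Their part in the other values was not tested.

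The difference between genotypes was then compared between CP1 and the pooled other CP types of the same libraries. By edgeR with the library as a term, 0 of 16865 genes passed (0%), the smallest adjusted p being 0.126, with 649 at an unadjusted p under 0.05. In simulated counts of the same kind this comparison recovered 13% of genes changed 2-fold and 80% of genes changed 4-fold. Its 0 therefore says little about changes near 2-fold, and recovery in the real counts was not measured. DESeq2 called 0 (46 at an unadjusted p under 0.05). With the batch added as a replicate block, which leaves 1 residual degree of freedom, 11 genes passed, 6 with a more positive difference in CP1 and 5 with a more negative one. They included Ralyl (-1.28), Otor (0.65), Epyc (0.71), a small proteoglycan gene of cartilage, and Cntn5 (-1.33). Cntn5 in CP1 was at 39.3 and 200.2 CPM in WT and at 29.9 and 31.4 in Tbx1+/-, so that 1 library, WT 2, set its difference.

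The share of CP1 among annotated PTB nuclei was 9.39% (exact 95% interval 8.83 to 9.98%) in WT 1, 8.97% (8.38 to 9.59%) in Tbx1+/- 1, 8.26% (7.57 to 8.99%) in WT 2 and 7.97% (7.32 to 8.66%) in Tbx1+/- 2. Each Tbx1+/- share was slightly below the WT share of its batch, but the batches differed more than the genotypes, and the genotypes overlapped. The fitted log2 difference was -0.06 (SE 0.173, adjusted p = 0.921 over 15 types, edgeR), and its sign turned under several settings. As a share of CP nuclei alone, CP1 was 21.3%, 24.8%, 20.4% and 20.3%. Set against the other 5 CP types, there were 0.271, 0.329, 0.256 and 0.255 CP1 nuclei per nucleus, a mean log2 difference of 0.14 between genotypes that came from batch 1 (0.28) and not from batch 2 (-0.004). The two-sided exact permutation test gave p = 1, and 2 libraries against 2 cannot give a p below 0.333.

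**Figure D4:**
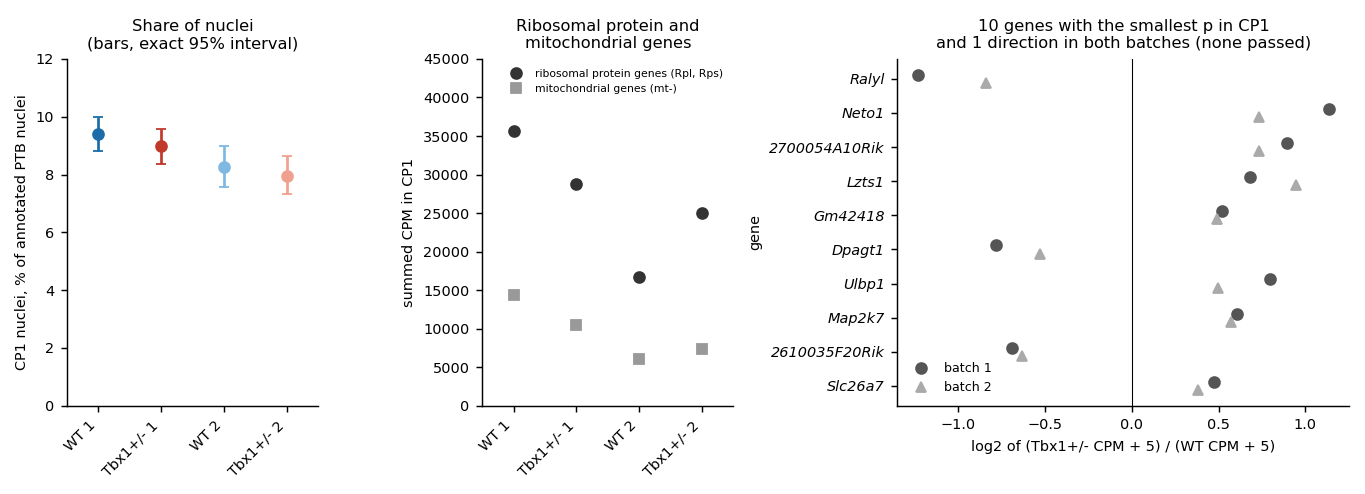
CP1 between genotypes: share of annotated PTB nuclei with exact 95% intervals (percent, left), summed CPM of ribosomal protein and mitochondrial genes in CP1 (middle), and log2 differences of CPM plus 5 within each batch for 10 genes with the smallest p (right, none passed). The shares lay between 7.97% and 9.39%, and WT 2 had the lowest ribosomal protein sum, 16651 CPM.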

How the data were processed

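Single-nucleus RNA libraries of the PTB were read from 3′ ends with the 10x Chromium kit. Per the submitters' processing notes and the study's methods, the authors mapped reads to mm10 with Cell Ranger 7.0.0 counting intronic reads, and the deposited UMI counts are those of all called barcodes, before the SoupX correction for free RNA that the authors made afterwards. The annotation is the authors' own, by label transfer and curation of Louvain clusters on nuclei with at least 1000 genes. No removal of doublets is described, and CP1 held 5.26 to 7.43% of its nuclei among the 8% with the most UMIs of a library. The 4 PTB matrices held 11906 to 21868 barcodes and 66835028 to 88677309 UMIs, of which 5981 to 9977 barcodes were annotated. The paraflocculus libraries were not used here.

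Counts of annotated nuclei were summed per type and library. Genotypes were compared with edgeR 4.0.16 in R 4.3.3 (quasi-likelihood test, TMM, low counts filtered, adjusted p under 0.05 and over 1.5-fold), nuclei per type with edgeR at a false discovery rate of 0.1, and ratios by exact permutation, and DESeq2 1.42.0 was an alternative. The study tested shares with DCATS, which was not run here. Pools are the replicates, so p-values measure the spread between 2 pools a genotype. The study gives 2 batches of animals, and deviations of same-numbered CP1 sums from their group means correlated at r = 0.325 across 13730 genes. The scripts were tested on simulated counts. Coordinates are from GENCODE M21 (GRCm38), which held 32158 of 32285 features.

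Lists of genes were written from textbook knowledge, and members, lists and tests were chosen with earlier results of these data known. Named genes were the study's PTB markers, up to 5 genes per list with the highest mean CPM in CP1, 15 leading genes in each direction (pseudocount 5 CPM, at least 20 CPM, 1 sign in 4 libraries), 10 genotype genes by smallest p, and sex-linked genes. Other genes named were chosen after their values were seen.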

Additional observations from a re-analysis of the deposited data

How the results depend on the processing

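Of 39 values for the comparisons, 25 kept their side of the threshold or moved by less than the spread of libraries. The sign of 1 of these, the ratio without Tbx1+/- 1, turned. A further 9 counts moved from 0 to above 0 and 5 signs turned, and the causes were not tested. For genotype in CP1, the count of 0 stayed 0 with RLE factors, DESeq2, the replicate block, nuclei of at least 2000 genes and without the 8% of nuclei with the most UMIs. It was 5 with no filter on low counts (Bpifa1, Ralyl, Cntn5, Ttr and Neto1), and 0 to 117 with 1 library left out, the 117 being both Tbx1+/- libraries against WT 2 alone. Each fit without 1 library leaves a genotype with a lone library, assumed to vary like the other genotype. For the difference of CP1 from the other CP types, the count was 1 with RLE factors, 9 with no filter, 11 with the replicate block, and 1 to 4 with 1 library left out (4 without either Tbx1+/- library, 3 without WT 1, 1 without WT 2). With nuclei of at least 2000 genes, or without the 8% with the most UMIs, it was 0.

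The log2 difference in the share of CP1, -0.06 as reported, was -0.06 with the replicate block and with DESeq2, but 0.00025 with TMM factors, 0.11 with CP nuclei as the denominator and 0.017 with all barcodes of at least 1000 genes as the denominator. It ran from -0.15 to 0.036 with 1 library left out, turning positive without WT 1 and without Tbx1+/- 2 (0.023). The log2 ratio of CP1 to the other CP types, 0.14, ran from -0.045 (without Tbx1+/- 1) to 0.32 (without Tbx1+/- 2) and was 0.066 with CP3 left out. The near-zero difference of Pdzrn4 turned positive with RLE factors (0.00056), no filter (0.0018), DESeq2 (0.00057), nuclei of at least 2000 genes (0.0076) and without the 8% with the most UMIs (0.035), and ran from -0.19 to 0.16 with 1 library left out (0.067 without WT 2, 0.16 without Tbx1+/- 2). With 1 library left out, the differences also turned for Runx2 (-0.039 without WT 1), Sp7 (range -0.17 to 0.14, 0.14 without Tbx1+/- 1 and 0.038 without WT 2), Col2a1 (-0.16 without WT 2 to 0.40 without WT 1) and Xist (-0.097 without Tbx1+/- 2 to 0.81 without WT 2). None of these 5 genes passed under any setting. Ralyl and Neto1 passed with no filter, at -1.25 and 1.87 (edgeR, adjusted p = 0.000748 and 0.0430). Gm42418 had an adjusted p of 1.34e-09 by edgeR with no filter, but under 1.5-fold. Without WT 1 its log2 difference was 0.55, also under 1.5-fold. Its difference within batch 1 was also seen in other types. Ttr stood at 114 CPM in Tbx1+/- 1 and at 2.68 to 23.0 in the others, and Cntn5 at 200.2 CPM in WT 2 and at 29.9 to 39.3 in the others.

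Depth limits low genes: Neto1, 2700054A10Rik, Lzts1 and Ulbp1 stood under 13 CPM in CP1, and the number of pools, 2 a genotype, limits every comparison.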
